A study of Mus musculus with 6 samples.

Results

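MHC class I heavy chains, their shared light chain B2m and the transactivator Nlrc5 were compared between alopecic skin, taken from mice that had lost hair to alopecia areata, and skin from mice without it. All mice were of the inbred strain C3H/HeJ, in which this autoimmune hair loss can arise spontaneously. The alopecic group held 3 mice and the unaffected group 3 mice, with 1 oligonucleotide array per mouse. No transgene, drug or other treatment is named for either group, and the sources used here do not give age, sex or body site. The members were the genes H2-K1, H2-T23, H2-M3, B2m and Nlrc5, chosen by name with earlier results of these data known. They were found through the gene symbols of the array's annotation table. A probe set is a group of array probes designed for one transcript. Of 45037 probe sets on each array, 8 carried 1 of these symbols alone, 4 for H2-K1, 1 for H2-M3, 2 for B2m and 1 for Nlrc5. A further 4 probe sets listed a member together with another gene, and both probe sets of H2-T23 were among them. Including those 4, 12 probe sets with several symbols, at least 1 of them a class I gene, are given apart as class I cross-reacting.

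MHC class I molecules show peptides from inside a cell to CD8 T cells and to natural killer cells. A molecule consists of a heavy chain, encoded in mice in the H2 complex, and the light chain beta-2 microglobulin, encoded by B2m. H2-K1 encodes a classical heavy chain that presents a wide range of peptides. H2-T23 encodes Qa-1, a nonclassical chain read mainly by the inhibitory receptor pair encoded by Klrd1 and Klrc1, and H2-M3 encodes a chain that presents peptides starting with formylated methionine. NLRC5 does not bind DNA itself. It is recruited to class I promoters by factors of the RFX, CREB and NF-Y families on a conserved set of boxes, and its own gene is induced by interferon gamma. The lower part of a growing hair follicle is known for a low display of class I molecules.

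The promoters are shown because the boxes on which NLRC5 acts lie just upstream of class I genes. RefSeq promoters of build GRCm38.p6 were matched for 4 of the 5 members, and none was matched for Nlrc5. Each line gives the 150 bases before the annotated start, 5′ to 3′ on the gene's own strand, at chr17:34000334-34000483 (minus strand) for H2-K1, chr17:36032702-36032851 (minus strand) for H2-T23, chr17:37270084-37270233 (plus strand) for H2-M3 and chr2:122147537-122147686 (plus strand) for B2m. For H2-K1, which has 2 annotated starts, the one farther downstream was used. Capitals mark TGACG (the core of the X2 box), ATTGG (the Y box), GAAANNGAA (a core of the interferon-stimulated response element), GGGATTCCC (a core of the kB site of class I genes) and TTCNNNGAA (the gamma-activated site), searched on both strands, where CCAAT and TTCNNTTTC are the reverse complements of ATTGG and GAAANNGAA.
H2-K1: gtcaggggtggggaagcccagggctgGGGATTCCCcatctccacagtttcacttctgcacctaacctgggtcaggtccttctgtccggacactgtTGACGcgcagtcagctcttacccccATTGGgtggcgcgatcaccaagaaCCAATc
H2-T23: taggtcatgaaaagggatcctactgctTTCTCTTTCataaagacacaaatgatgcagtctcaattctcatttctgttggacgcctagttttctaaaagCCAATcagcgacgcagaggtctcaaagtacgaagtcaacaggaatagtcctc
H2-M3: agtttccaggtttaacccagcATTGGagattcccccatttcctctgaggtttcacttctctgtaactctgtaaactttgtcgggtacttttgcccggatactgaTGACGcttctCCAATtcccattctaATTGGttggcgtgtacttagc
B2m: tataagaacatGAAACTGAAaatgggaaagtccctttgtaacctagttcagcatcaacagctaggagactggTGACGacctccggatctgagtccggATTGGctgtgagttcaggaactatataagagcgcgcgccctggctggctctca

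In H2-K1, H2-M3 and B2m, TGACG was followed after exactly 20 bases by ATTGG on the same strand. H2-T23 held CCAAT and a TTCNNTTTC match but no TGACG in this window. Among 32851 promoter windows of the same length in the table, 13.3% held TGACG, 24.5% held ATTGG, 3.95% held GAAANNGAA, 0.14% held GGGATTCCC and 4.09% held TTCNNNGAA, on either strand. The pair TGACG, 20 bases and ATTGG stood in 24 windows, or 0.0731%, and these belonged to 23 of 27025 genes. The letters searched and the spacing were settled after these promoters had been read. TTCNNNGAA had no match in the 4 windows. Elements with letters other than these stay in lower case, so a window without a match is not shown to lack such an element. The reference is the strain C57BL/6J, whose H2 haplotype differs from that of C3H/HeJ, so the letters may differ in the mice studied.

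The arrays were checked before the comparison. The epidermal keratin genes Krt5 and Krt14 were brighter than 99% of probe sets, which fits the labelled tissue, and so were the skeletal muscle genes Acta1 and Myh4 in both groups. Unaffected replicate 3 stood apart from the other arrays, with 41.1% of the squared deviation within groups over all probe sets. Its mean over 5 hair shaft and inner root sheath genes was 5.34, while the highest unaffected array had 14.06 and the alopecic arrays had 12.15 to 12.69. Results for the members are therefore given with and without that array. RNA integrity was read from the 3′ minus 5′ difference of control probe sets. For beta-actin the difference averaged 0.97 ± 0.439 in the alopecic group and 0.707 ± 0.463 in the unaffected group (SD of 3 arrays), with an exact two-sided permutation p of 0.6. For Gapdh these means were 0.306 ± 0.302 in the alopecic group and 0.125 ± 0.196 in the unaffected group (SD of 3 arrays), with an exact p of 0.4. The smallest p this test can give with 3 arrays per group is 0.1, so it does not show that RNA integrity was alike.

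No member passed the test over all probe sets, yet all 8 member probe sets with a single symbol were higher in each alopecic array than in each unaffected array. The test was limma's moderated test of alopecic minus unaffected, adjusted by the Benjamini-Hochberg method over 45037 probe sets with a threshold of 0.05. By it 0 of the 8 rose and 0 fell, with a lowest adjusted p of 0.0866, while over all probe sets 63 rose (0.14%) and 1 fell (0.00222%). All 8 had an unadjusted limma p under 0.05 and were higher, against 3.65% of all probe sets that were higher with such a p. Every alopecic array lay above every unaffected array in 5.54% of all probe sets. The members were chosen with earlier results of these data known, so these shares stand beside the 8 as a description only. The 8 probe sets belong to 4 genes, and 4 of them to H2-K1. The median log2 difference of the 8 was 1.24, with a range of 0.71 to 2.03, and the median of all probe sets was -0.02. Without unaffected replicate 3 the median of the 8 was 1.34, and 1 of them, Nlrc5, rose. At their brightest probe sets H2-K1, H2-T23, H2-M3 and B2m then differed by 1.99, 1.55, 1.39 and 0.69, with adjusted p between 0.16 and 0.298. Values are log2 RMA values, relative intensities on which a difference of 1 is a doubling.

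Nlrc5, the transactivator, had the largest difference among the members. Its values were 11.60, 11.36 and 11.38 in alopecic skin, against 8.99, 9.34 and 9.93 in unaffected skin. The alopecic arrays lay close together and 1.43 above the highest unaffected array, while the unaffected arrays spread over 0.94 log2 units. The difference was 2.03 (SE 0.25, 95% interval 1.42 to 2.65), or 4.09-fold, with an adjusted p of 0.0866. Unaffected replicate 3 was the highest of its group. Without it the difference was 2.29 (SE 0.15) and Nlrc5 rose (adjusted p = 0.0263). Leaving out each of the other arrays in turn gave differences between 1.81 and 2.07 and adjusted p between 0.233 and 0.409.

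H2-K1, the classical heavy chain, was measured by 4 probe sets with its symbol alone, all of the kind marked x, in which the maker notes probes that also match other transcripts. On the brightest it had 12.43, 11.51 and 11.71 in alopecic skin, against 9.88, 9.90 and 10.90 in unaffected skin. The groups did not overlap, but unaffected replicate 3 lay about 1 log2 unit above the other unaffected arrays, and the gap to the lowest alopecic array was 0.61. The difference was 1.66 (SE 0.37, adjusted p = 0.432), or 3.15-fold. The second brightest had 11.85, 11.35 and 11.50 in alopecic skin, against 10.08, 10.15 and 10.38 in unaffected skin. Its difference was smaller, 1.36 (SE 0.17, adjusted p = 0.0866), with a narrower spread in both groups. The third differed by 0.87 (SE 0.14, adjusted p = 0.192). The dimmest differed by 1.26 (SE 0.22, adjusted p = 0.231), and its mean over the 6 arrays was 5.48, below the lowest array median of 6.11.

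A probe set shared by H2-K1 and H2-D1, the other classical heavy chain measured here, gave 13.39, 12.78 and 12.97 in alopecic skin, against 11.40, 11.39 and 11.83 in unaffected skin. The groups were 0.95 apart, and the difference was 1.5 (SE 0.21, adjusted p = 0.125). The probe set shared by H2-K1 and H2-Q5 was the 1 of 12 listing a member in which the groups overlapped. It had 5.99, 6.15 and 5.88 in alopecic skin, against 5.88, 6.13 and 6.05 in unaffected skin, a difference of -0.02 (95% interval -0.32 to 0.29). Its mean over the 6 arrays was 6.01, below the lowest array median of 6.11.

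H2-T23, which encodes Qa-1, was measured by 2 probe sets that both also list H2-T-ps, a pseudogene of the T region. The brighter one had 13.48, 12.73 and 12.64 in alopecic skin, against 11.38, 11.42 and 11.77 in unaffected skin. All alopecic arrays were at least 0.88 above the unaffected ones, and the difference was 1.43 (SE 0.26, adjusted p = 0.249), or 2.70-fold. The dimmer one had 7.69, 7.31 and 7.28 in alopecic skin, against 5.77, 6.20 and 5.16 in unaffected skin, a difference of 1.72 (SE 0.28, adjusted p = 0.202). In the brighter probe set unaffected replicate 3 was the highest of its group and in the dimmer one the lowest. How much of either signal comes from H2-T23 cannot be told from these probe sets.

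H2-M3, which presents formylated peptides, had 9.81, 9.06 and 8.96 in alopecic skin, against 7.90, 7.88 and 8.37 in unaffected skin. Alopecic replicate 1 stood apart at the top, and the other alopecic arrays were 0.59 or more above the highest unaffected array. The difference was 1.23 (SE 0.27, adjusted p = 0.421), or 2.34-fold.

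B2m, the light chain, was among the brightest signals on the arrays, with a mean above that of 99.7% of probe sets, and had the smallest difference among the members. Its first probe set had 14.56, 14.19 and 14.28 in alopecic skin, against 13.74, 13.57 and 13.58 in unaffected skin, and its second 14.35, 13.87 and 13.97, against 13.41, 13.26 and 13.22. In both probe sets the groups were separate, by 0.45 and 0.47, and the unaffected arrays lay close together. The differences were 0.71 (SE 0.13, adjusted p = 0.275) and 0.77 (SE 0.15, adjusted p = 0.345), or 1.64-fold and 1.70-fold. The highest value on any array was 14.92, and whether B2m was limited by the top of the intensity scale was not tested.

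**Figure D1:**
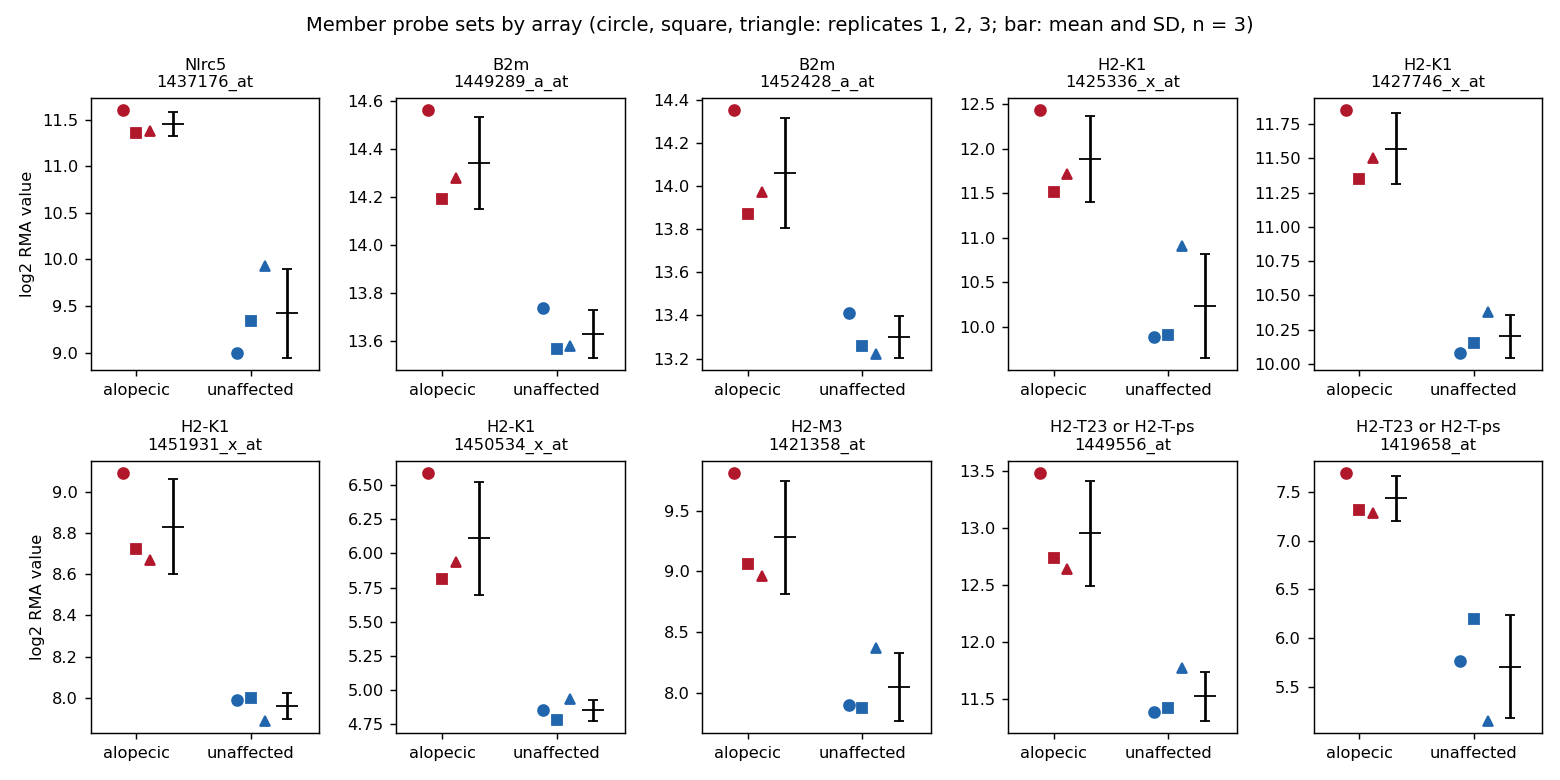
Log2 RMA values (y axis, a separate scale in each panel) of the 8 member probe sets with 1 symbol and the 2 probe sets of H2-T23 in alopecic and unaffected arrays; symbols mark replicates 1, 2 and 3, and bars give the mean and SD over 3 arrays. In each panel every alopecic array lies above every unaffected array, and alopecic replicate 1 is the highest.

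The size of the difference was compared between members, with a test that cannot reach the threshold at 3 arrays per group and so does not settle whether they differ. For each of 10 pairs of members, the log2 difference between their brightest probe sets was taken in each array and compared between groups. The largest contrast was that of Nlrc5 over B2m, at -2.90 ± 0.066 in the alopecic group and -4.21 ± 0.557 in the unaffected group (SD of 3 arrays), so the group difference of Nlrc5 was larger by 1.32. The groups were separate in 4 of the 10 pairs, namely Nlrc5 over B2m, Nlrc5 over H2-M3, H2-T23 over B2m and H2-T23 over H2-M3. Their exact two-sided permutation p was 0.1, the smallest that 3 against 3 allows, and the p adjusted over 10 pairs was 0.222. In the other 6 pairs the groups overlapped, with exact p of 0.2 or 0.4.

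After each profile was centred on its own mean over the 6 arrays, the profiles of H2-T23 and H2-M3 were the closest pair of members, with a root mean square difference of 0.11 log2 units. Those of B2m and Nlrc5 were the farthest apart, at 0.73. Among 18193 genes with a single-symbol probe set, the closest to Nlrc5 were Tapbp, which encodes the peptide loading factor tapasin, at 0.11, the TNF-induced Tnfaip2 at 0.15 and Uba7, the activating enzyme of ISG15, at 0.18. The closest to H2-K1 were Acap1 (0.14), the glucose transporter Slc2a1 (0.17) and the oligoadenylate synthetase Oas2 (0.24). H2-T23 was closest to the inflammatory caspase Casp4 (0.07), the potassium channel Kcnn4 (0.10) and H2-M3 (0.11). H2-M3 was closest to the class II loading chain H2-DMa (0.11), the macrophage growth factor Csf1 and the kinase Map3k14 (0.14 each). B2m was closest to Prr13 (0.06), the actin regulator Vasp (0.06) and the zinc finger gene Zfp287 (0.08). This measure follows size as well as shape and was taken over 6 arrays in 2 groups, so it ranks genes with similar group differences.

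Signals of other class I genes were split by brightness. Of the 12 cross-reacting probe sets, 8 had a mean over the 6 arrays at or above the lowest array median of 6.11. Of those 8, 7 were higher in every alopecic array, against 5.54% of all probe sets. Of the 4 dimmer ones, 0 were higher in every alopecic array, and their differences ran from -0.43 to 0.12. By the same limma test 0 of the 12 passed, with a lowest adjusted p of 0.0788. At an unadjusted p under 0.05 there were 8, of which the dim probe set for Gm38417, LOC547349 and H2-Bl was lower. Over all probe sets 3.65% were higher with such a p. The largest difference was that of the probe set for H2-Q6, H2-Q8 and H2-Q4, which encode nonclassical chains of the Q region. It had 9.41, 9.76 and 9.70 in alopecic skin, against 6.37, 6.46 and 7.93 in unaffected skin. The groups were 1.48 apart, and unaffected replicate 3 was well above the others of its group. The difference was 2.70 (SE 0.44, adjusted p = 0.186), or 6.51-fold.

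The probe set for H2-Q9 and H2-Q7, which encode Qa-2, had 8.35, 8.13 and 7.99 in alopecic skin, against 5.48, 5.66 and 6.51 in unaffected skin, a difference of 2.28 (SE 0.29, adjusted p = 0.0958). The second probe set for H2-Q6 and H2-Q8 differed by 1.65 (SE 0.34, adjusted p = 0.373). Without unaffected replicate 3 these 3 probe sets of the Q region rose, with adjusted p of 0.0118, 0.0218 and 0.0397. The bright probe set shared by H2-T9, H2-T22 and H2-T10, nonclassical chains bound by some gamma delta T cells, had 13.17, 12.55 and 12.62 in alopecic skin, against 10.78, 10.69 and 11.19 in unaffected skin. Its groups were 1.36 apart, and its difference was 1.89 (SE 0.22, adjusted p = 0.0788). A dimmer probe set for the same 3 genes differed by 0.91 (SE 0.46) with overlapping groups. Some genes of the Q and T regions are known to vary in number between H2 haplotypes, and the probe sets do not tell their products apart. Whether the C3H/HeJ mice carry each of the Q and T genes named by these probe sets was not tested.

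**Figure D2:**
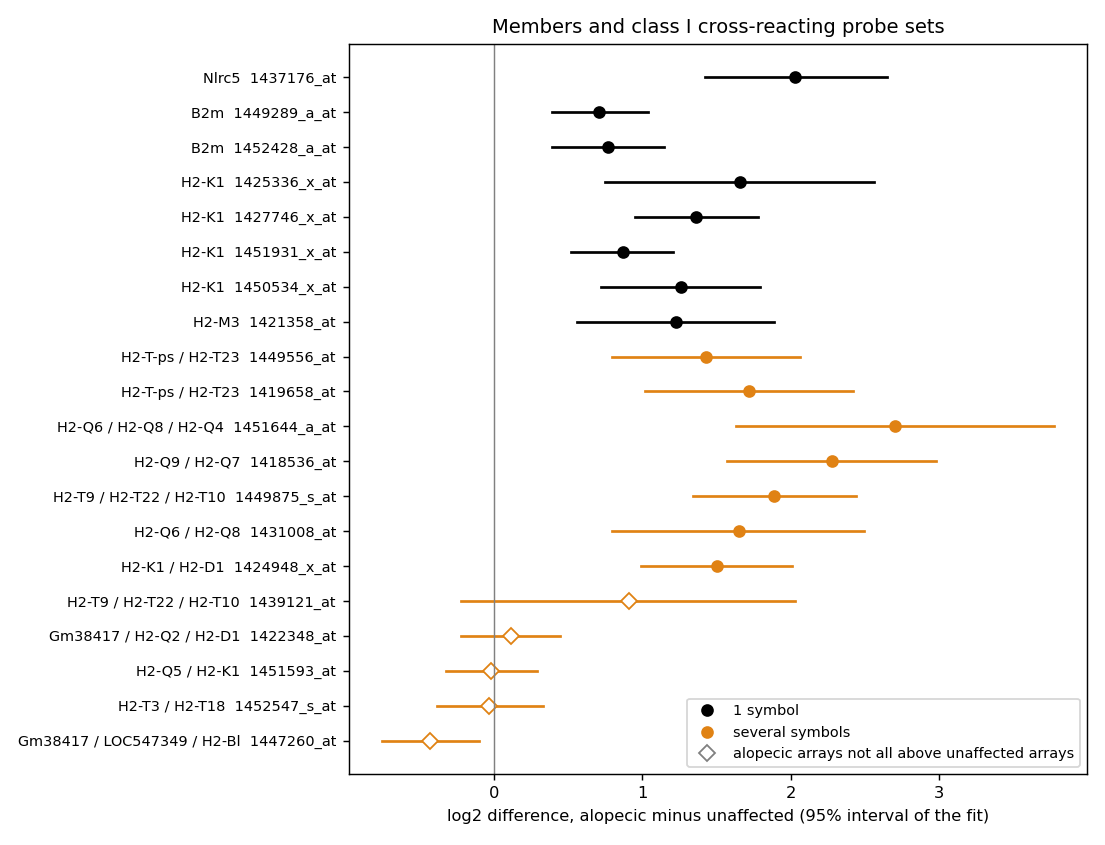
Log2 difference, alopecic minus unaffected (x axis), with its 95% interval from the limma fit for the 8 member probe sets with 1 symbol (black) and the 12 class I probe sets with several symbols (orange); open diamonds mark probe sets in which the alopecic arrays were not all above the unaffected arrays. The single-symbol differences run from 0.71 to 2.03, and the several-symbol ones from -0.43 to 2.70.

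A further 21 probe sets carried the single symbol of another class I heavy chain, and 0 passed the limma test. At an unadjusted p under 0.05 there were 10, all of them higher, against 3.65% of all probe sets. In 10 of the 21 every alopecic array was above every unaffected array, against 5.54% of all probe sets, and the median difference was 0.61. In 2 of the 21, dim probe sets of H2-Q2 and H2-T3, every alopecic array was below, each with a difference of -0.12 (SE 0.09). H2-D1, a classical heavy chain, had 13.47, 13.07 and 13.10 on its brightest probe set in alopecic skin, against 12.05, 12.02 and 12.17 in unaffected skin. Its groups were 0.90 apart, with a difference of 1.13 (SE 0.14, adjusted p = 0.087). Its 9 probe sets differed by 0.21 to 1.27, and 7 of them had separate groups. H2-T24 differed by 2.08 (SE 0.42, adjusted p = 0.345), and H2-T18, known from thymocytes, by -0.21 (SE 0.13). H2-Q5 differed by 1.99 (SE 0.36, adjusted p = 0.255) on its brighter probe set and by -0.17 on a dim one. The class I-like genes outside the H2 complex did not follow the members. At the brightest probe set the groups overlapped in all 7, and their median difference was -0.11, with Fcgrt, the neonatal Fc receptor, at -0.38 (SE 0.26), Procr at -0.25 (SE 1.0), Cd1d1, which presents lipids, at 0.53 (SE 0.66) and Hfe, a regulator of iron uptake, at 0.27 (SE 0.40), whose second, dim probe set differed by 0.22 with separate groups.

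Among genes that supply and load class I peptides, 2 immunoproteasome subunits and 1 transporter subunit rose. Of 12 measured genes, taken at 1 probe set per gene, 3 rose, against 0.225% of 18193 genes, and 0 fell, against 0.0055%. The median difference was 1.72, and in 9 of 12 the groups were separate with alopecic skin higher, against 6.93% of genes. An unadjusted p under 0.05 with a higher level was found for 9 of 12, against 5.03% of genes. The immunoproteasome subunit Psmb9 had 12.63, 12.30 and 12.16 in alopecic skin, against 9.82, 9.50 and 9.97 in unaffected skin, a difference of 2.60 (SE 0.18, adjusted p = 0.0163). A further immunoproteasome subunit, Psmb10, rose by 2.34 (SE 0.16, adjusted p = 0.0163), and the transporter subunit Tap2 by 2.53 (SE 0.23, adjusted p = 0.0316). Tapasin, Tapbp, differed by 1.90 (SE 0.26, adjusted p = 0.121). The chaperones Calr, Canx and Pdia3, which serve glycoprotein folding in general, differed by 0.32 (SE 0.24), 0.33 (SE 0.22) and 0.42 (SE 0.38), and their groups overlapped. The count of 3 depended on the arrays, being 4 without unaffected replicate 3, 1 without alopecic replicate 3 and 0 without any 1 of the other 4 arrays. These genes were given in an earlier account of the same arrays and are no independent support for the members.

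The partners of NLRC5 on class I promoters differed by -0.15 to 0.51 at their brightest probe sets. Of 7 measured genes 0 passed the limma test, and the median difference was 0.28. An unadjusted p under 0.05 with a higher level was found for 2, Rfx5 and Nfya, against 5.03% of all genes. In the same 2 every alopecic array was higher, against 6.93% of all genes. Nfya, named after its values were seen, differed by 0.51 (SE 0.21) with groups 0.19 apart. Its 3 probe sets differed by -0.05 to 0.51, and 2 of them were dim. Rfx5, a subunit of the RFX complex, had 9.14, 9.16 and 9.11 in alopecic skin, against 8.60, 8.42 and 9.06 in unaffected skin, a difference of 0.44 (SE 0.18, adjusted p = 0.853). Creb1 differed by 0.28 (SE 0.22), and the NF-Y subunits Nfyb and Nfyc by 0.30 (SE 0.25) and 0.05 (SE 0.18). Among 4 relatives of NLRC5, 0 passed the limma test and 1 was higher with an unadjusted p under 0.05, against 5.03% of all genes. This was Ciita, the transactivator of MHC class II genes, with 7.69, 7.04 and 6.82 in alopecic skin, against 6.11, 6.0 and 5.91 in unaffected skin. Its groups were 0.71 apart, and the difference was 1.18 (SE 0.24, adjusted p = 0.342). Nod1, Nlrx1 and Nlrc3 differed by 0.30 (SE 0.18), 0.03 (SE 0.12) and -0.01 (SE 0.10) with overlapping groups. A second, dim probe set of Nlrc3 differed by 1.6 with separate groups.

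Upstream of Nlrc5 and the class I genes, 1 of 8 measured genes rose, against 0.225% of all genes, and 0 fell, against 0.0055%. This was Irf1, a transcription factor induced by interferon gamma, with 11.82, 11.61 and 11.60 in alopecic skin, against 8.5, 8.84 and 8.90 in unaffected skin. The groups were 2.70 apart, and the difference was 2.93 (SE 0.15, adjusted p = 0.00794). The count of this list was 1 without alopecic replicate 1 or unaffected replicate 3 and 0 without any 1 of the other 4 arrays. Ifng, chosen here after its values were seen, encodes interferon gamma. It was dim in unaffected skin and differed by 2.24 (SE 0.25, adjusted p = 0.0658). The receptor chain Ifngr1 differed by -0.39 (SE 0.30), and the kinases Jak1 and Jak2 by -0.05 (SE 0.23) and 0.33 (SE 0.17). Rela differed by 0.30 (SE 0.14), with groups 0.06 apart. Irf2, named after its values were seen, differed by 0.68 (SE 0.17, adjusted p = 0.58), with groups 0.18 apart. In 4 of the 8 genes every alopecic array was higher, against 6.93% of all genes. An unadjusted limma p under 0.05 was found for 3, all of them higher, against 5.03% of all genes.

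Receptors for class I molecules did not differ alike. Of 9 measured genes 0 passed the limma test and 4 had an unadjusted p under 0.05, all of them higher, against 5.03% of all genes. Klrd1, which encodes CD94 and pairs with a chain encoded by Klrc1 to read Qa-1, had 9.12, 7.98 and 8.27 in alopecic skin, against 5.87, 6.0 and 6.19 in unaffected skin. Its groups were 1.79 apart, with a difference of 2.44 (SE 0.30, adjusted p = 0.0897). Klrc1, named after its values were seen, differed by 2.50 (SE 0.35, adjusted p = 0.13) from a dim unaffected level. Cd8a, the co-receptor that binds class I on cytotoxic T cells, had 8.59, 7.39 and 7.42 in alopecic skin, against 6.13, 5.79 and 6.20 in unaffected skin, a difference of 1.76 (SE 0.35, adjusted p = 0.345). Its 5 probe sets differed by 0.38 to 3.83, all with separate groups, and 3 of them were dim. Cd8b1, named after its values were seen, differed by 2.13 (SE 0.64, adjusted p = 0.693). Its alopecic values were 8.34, 6.23 and 5.90, with replicate 1 far above the others. The natural killer receptors Klrc2, Klra7 and Klra8 were dim and differed by -0.09 (SE 0.16), -0.15 (SE 0.09) and 0.06 (SE 0.11), and Klra7 was lower in every alopecic array. Whether C3H/HeJ mice carry each of these genes, and whether each product binds their class I molecules, was not tested. The inhibitory receptor Pirb of myeloid and B cells differed by 0.45 (SE 0.56) and Cd160 by -0.12 (SE 0.12), with overlapping groups.

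**Figure D3:**
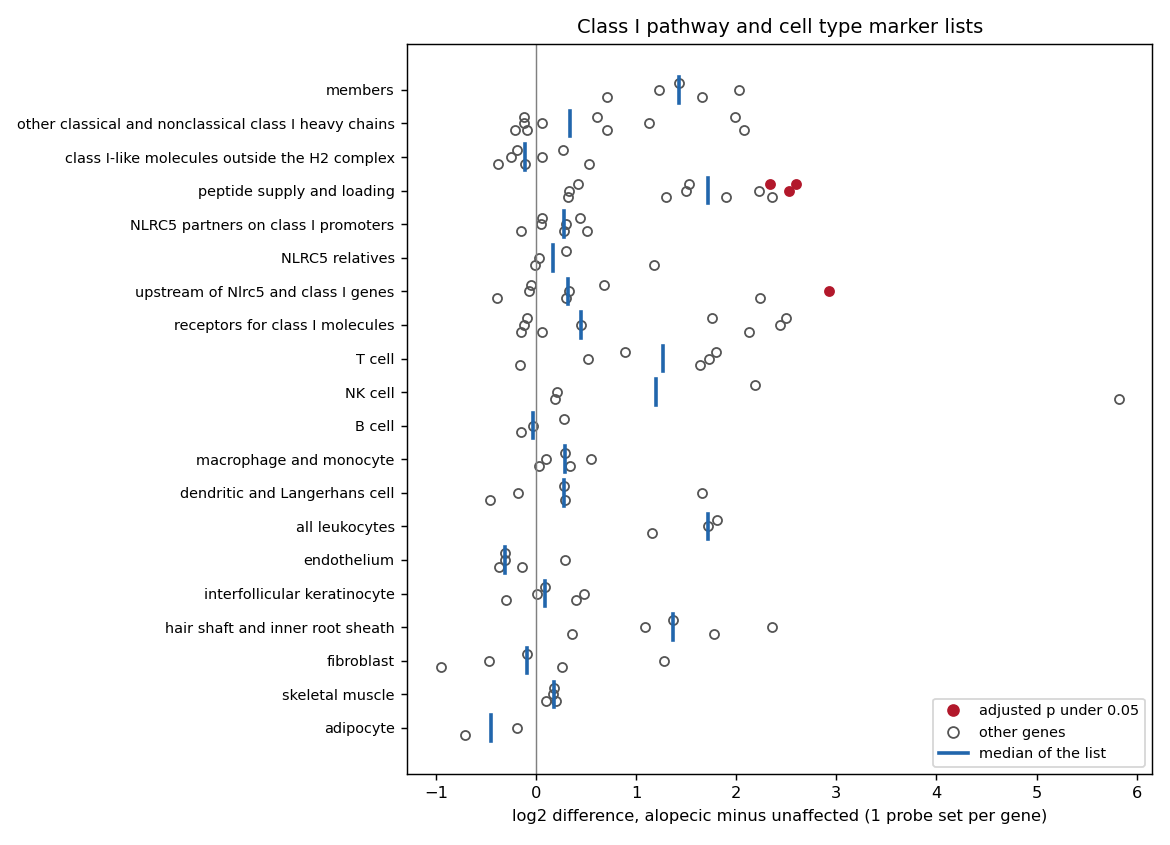
Log2 difference, alopecic minus unaffected (x axis), of each measured gene of the class I pathway and cell type marker lists at 1 probe set per gene; filled points passed the limma test over all probe sets, and vertical bars give list medians. The 4 filled points are Psmb9, Psmb10, Tap2 and Irf1, and the members have a median of 1.43.

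The samples were whole skin, so a difference in the number of cells of a type and a difference in RNA per cell cannot be told apart. Leukocyte markers were also higher in alopecic skin. At their brightest probe sets Ptprc, which encodes CD45, Coro1a and Laptm5 differed by 1.16 (SE 0.38), 1.81 (SE 0.29) and 1.72 (SE 0.27), and all 3 had separate groups. The 2 probe sets of Ptprc differed by 1.05 to 1.16 and the 3 of Coro1a by 0.62 to 1.81, all with separate groups. The 5 of Laptm5 differed by 0.13 to 1.72, and 3 of them had separate groups. Of 6 T cell markers 5 were higher in every alopecic array, with a list median of 1.26 that includes Cd4 at -0.16. Over all genes 6.93% had groups separate in this direction. Of 4 natural killer cell markers 3 were, with a median of 1.20. These were Gzma at 5.82 (SE 0.68), Nkg7 at 2.19 (SE 0.38) and the defining Ncr1 at 0.19 (SE 0.11), whose groups were only 0.03 apart. Ncr1 was dim in both groups (4.58 ± 0.139 and 4.39 ± 0.0751, SD, n = 3 each). Eomes was also dim and differed by 0.21 (SE 0.15) with overlapping groups. The lists of B cells (median -0.03), macrophages and monocytes (0.29), endothelium (-0.31), fibroblasts (-0.09), skeletal muscle (0.18) and adipocytes (-0.45) had 0 genes with alopecic skin higher on all arrays. The hair shaft and inner root sheath list had a median of 1.37, or -1.49 without unaffected replicate 3, and over all 6 arrays the groups overlapped in each of its 5 genes. With that array left out, every alopecic array was below both other unaffected arrays in all 5. For dendritic and Langerhans cells (median 0.28) it was 1 of 5, Itgax at 1.66 (SE 0.52). For interfollicular keratinocytes (median 0.09) it was 2 of 5, Krt5 at 0.40 (SE 0.15) and Krt14 at 0.48 (SE 0.13). No gene of the 12 marker lists passed the limma test. The part of leukocytes in the differences of the members was not tested.

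Within the alopecic group, replicate 1 was the highest array in all 8 member probe sets with 1 symbol, against 34.7% of all probe sets. It was also the highest in 3 of 3 leukocyte markers, 5 of 6 T cell markers and 12 of 12 genes of peptide supply and loading. Within the unaffected group, replicate 3 was the highest array in 5 of the 8 member probe sets, against 43.4% of all probe sets. It was the highest in 0 of 3 leukocyte markers, all of which were highest in unaffected replicate 2, and in 3 of 6 T cell markers. Averaged over the genes of a list, leukocyte markers ran from 9.93 to 10.97 in alopecic arrays and from 8.65 to 9.04 in unaffected arrays, and T cell markers from 7.10 to 7.99 and from 6.28 to 6.47. Without alopecic replicate 1 the median difference of the 8 member probe sets was 0.99, and all 8 still had separate groups, as they did in each of the 6 sets with 1 array left out. With 1 alopecic array fewer, the share of all probe sets with every alopecic array higher was 7.15% to 14.4%. With 1 unaffected array fewer it was 9.35% to 12.7%.

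**Figure D4:**
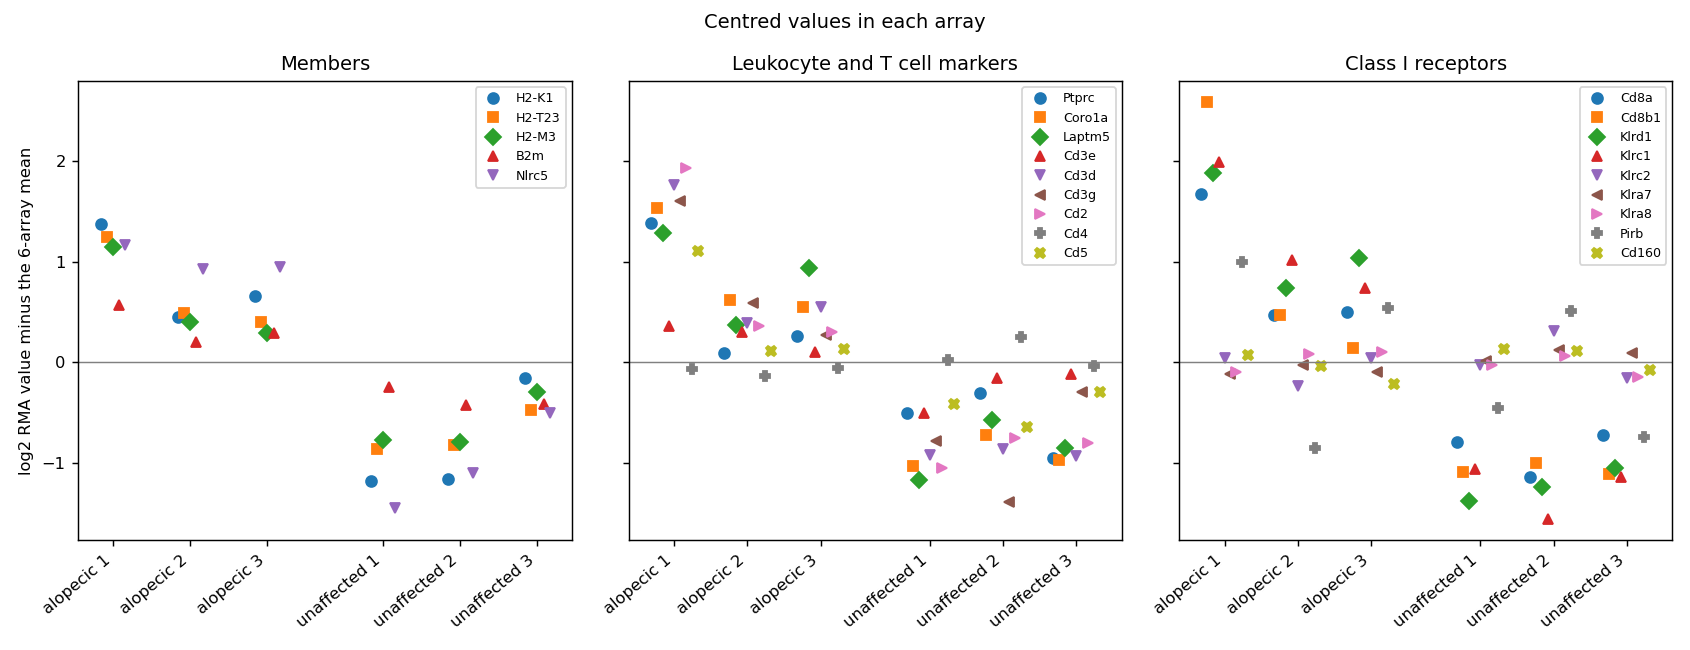
Log2 RMA values minus each gene's mean over the 6 arrays (y axis) in each array, for the 5 members at their brightest probe set, for all 3 leukocyte and 6 T cell markers measured, and for all 9 measured receptors of class I molecules. The members lie above their mean in the 3 alopecic arrays and below it in the 3 unaffected arrays, with alopecic replicate 1 the highest, and so do the markers other than Cd4 and the receptors Cd8a, Cd8b1, Klrd1 and Klrc1, while Klrc2, Klra7, Klra8, Pirb and Cd160 do not.

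The genes with the promoter pair of TGACG, 20 bases and ATTGG were compared as a description. Of the 23 genes 20 had a single-symbol probe set, and in 4 of the 20 every alopecic array was higher, against 6.93% of all genes. Of these 4, 3 are members whose own promoters were read to settle the letters and the spacing, so nothing is read from the count. These were B2m, H2-K1, H2-M3 and H2-D1, with differences of 0.71, 1.66, 1.23 and 1.13. In the other 16 the groups overlapped, and the median of all 20 was 0.12. Among those 16 were the histone chaperone gene Nasp at 0.30 (SE 0.32), the transcription factor gene Nfe2l1 at 0.05 (SE 0.32), and Trim26 and Znrd1 at 0.18 (SE 0.31) and 0.13 (SE 0.20), all named after their values were seen.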

How the data were processed

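Total RNA of skin was purified with a Qiagen miRNeasy kit, labelled with the 3′ IVT Express biotin kit and hybridised to 1 array per mouse, per the labels' protocols. The authors deposited 1 log2 value for each probe set on each array. Those values came from RMA, per the submitters' processing notes, and the sources used here name no version. RMA removes differences in total RNA and compresses dim signals. Values ran from 3.07 to 14.92, array medians from 6.11 to 6.17. Of 45101 probe sets, 64 controls were left out. Symbols came from the platform annotation (34945 probe sets with 1 symbol, 932 with several) and were updated through RefSeq gene identifiers of GRCm38.p6 for 34741.

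Groups were compared with limma 3.58.1 in R 4.3.3 (lmFit, eBayes) over all 45037 probe sets. Folds are 2 to the power of the log2 difference; SE is the fit's standard error. Lists were read at the brightest single-symbol probe set per gene (18193 genes), with the adjusted p of the fit over all probe sets and no set test. Text names members, cross-reacting probe sets, listed genes past the threshold with up to 4 of the brightest others, and the 3 nearest profiles per member. The members, lists and rules were chosen with earlier results of these data known. The 7 pathway lists had 80 entries, of which 57 were measured. Any 2 arrays had at most 92 values in common. No batch is given, and the number of arrays limits precision. The fit was tested on simulated data, in which it recovered 19 of 50 changes of 1 log2 unit and 33 of 50 changes of 2. Of changes of 4 and 6 log2 units it recovered 44 and 48 of 50. A member that missed the threshold is therefore not shown to be unchanged. Alternatives were 1 probe set per gene, a filter on dim probe sets, further normalization, another variance model, array weights, the replicate number as a block and leaving out each array.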

Additional observations from a re-analysis of the deposited data

How the results depend on the processing

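The 5 members at their brightest probe sets kept the direction of their differences under each alternative run. H2-K1, H2-T23, H2-M3 and B2m missed the threshold in each of them, with leave-one-out differences of 1.38 to 1.99, 1.16 to 1.58, 0.96 to 1.39 and 0.61 to 0.79. Nlrc5 passed with dim probe sets left out (2.03, adjusted p = 0.049) and with array weights (2.26, adjusted p = 0.00653), which gave unaffected replicate 3 a weight of 0.24; its leave-one-out range was 1.81 to 2.29. With array weights the second probe set of H2-K1 (adjusted p = 0.0184), the dimmer one of H2-T23 (0.0424), that of H2-K1 with H2-D1 (0.021) and 4 others with several symbols (0.00543 to 0.0288) passed too, and with dim probe sets left out so did those of H2-Q9 with H2-Q7 (0.0493) and of H2-T9, H2-T22 and H2-T10 (0.0467). At 1 probe set per gene the adjusted p of Nlrc5 was 0.0631, that of H2-K1 0.335 and that of B2m 0.227, and H2-T23 had no such probe set. The count of 64 probe sets past the threshold became 97 with dim probe sets left out, 187 with array weights and 0 to 68 with 1 array left out. Leaving out alopecic replicates 1, 2 and 3 in turn left 20, 2 and 9, and leaving out unaffected replicate 1 or 2 left 0 by limma, with 2779 and 2572 at an unadjusted p under 0.05. With the replicate number as a block the count was 0, with 1959 at an unadjusted p under 0.05, and Nlrc5 stood at 2.03 (adjusted p = 0.507). Same-numbered arrays did not deviate together (correlations of -0.101, -0.123 and -0.291), and no array correlated best with its own number, so the numbers were not taken as pairs. Renewed quantile normalization gave a median difference of all probe sets of -0.017, against -0.023 as deposited. Measured from the middle of the transcript instead of the 5′ end, the RNA quality differences were 0.0253 for beta-actin and 0.113 for Gapdh. Among the alternatives, only the counts within the members and lists with single arrays left out were added after seeing the data. The contrasts between members, the split by brightness, the counts of highest arrays and the comparison of promoter-pair genes were not among the planned results. Dim probe sets have no detection call here, which limits what their differences show.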
